A study of Drosophila melanogaster with 4 samples.

Results

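The sequences described here are the 26 reference entries that are not transposons among the 150 to which long RNA reads of *Drosophila melanogaster* were assigned. They were chosen by name: every entry whose name ends in "_randomDistribution" (an ending left out below), together with stellate and Su-Ste. By their names they comprise 13 satellite entries, 4 telomere-associated repeats (TAS), 1 rDNA spacer (NTS_DM), the stellate and Su-Ste pair, 3 chromosomal regions and 3 entries (SAR_DM, SAR2_DM and XDMR) whose class the names do not give. The other 124 entries are transposons.

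There were 4 libraries of polyadenylated RNA sequenced directly on a nanopore device, with 1 library in each group. Ovaries expressed a hairpin against *vreteno*, a gene needed to make piRNAs (genotype Tj-GAL4>vretenoGD), or a control hairpin against *arrestin2* (Tj-GAL4>arrestin2GD). Both carried the Tj-GAL4 driver, which works in somatic ovarian cells, so the germ cells of these ovaries were not the target of the hairpin. The ovaries came from flies kept at 25 °C. Cultured ovarian somatic cells (OSCs), a follicle cell line of somatic origin, were treated with siRNA to *piwi* (siPIWI) or to GFP (siGFP). The labels used here give no age or strain of the flies. The files cover only these 150 sequences, so neither the knocked-down mRNAs nor markers of the tissue and cell line were analysed here.

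Satellites are short sequences repeated in tandem over long stretches of heterochromatin. The rDNA spacer lies between the ribosomal RNA genes and is itself made of short repeats, while TAS repeats lie next to the telomeric retrotransposons at chromosome ends. Stellate is a tandem gene family of the X chromosome that encodes a protein related to the beta subunit of casein kinase II; in the testis it is silenced by piRNAs made from the Suppressor of Stellate repeats of the Y chromosome. Kipferl, the protein encoded by *kipf*, is a zinc finger protein that brings the heterochromatin protein Rhino to chromatin in female germ cells. The names do not say whether small_kipf_region holds the gene *kipf* or a locus bound by its protein.

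The files do not say whether a value is a read end or coverage. Each count was taken as 1 read end, because counts stood on few, separate positions, where coverage would fill stretches. That it is the 3' end is an assumption from the method, in which sequencing starts at the poly(A) tail, and every statement below on where reads ended rests on it. No strand is given. Below, upstream, proximal, distal and the 3' end of an entry thus follow its position numbers, and the direction of transcription was not tested. In all, the 2051 reads of the 26 sequences lay on 62 positions in vreteno knockdown ovaries, 89 in arrestin2 control ovaries, 87 in siPIWI OSCs and 71 in siGFP OSCs. The 26 sequences held 245 of 5401 reads in vreteno knockdown ovaries, 406 of 2788 in arrestin2 control ovaries, 954 of 165197 in siPIWI OSCs and 446 of 57491 in siGFP OSCs. As shares of all reads in the files these were 4.54% (exact Clopper-Pearson 95% interval 3.997 to 5.13), 14.6% (13.3 to 15.9), 0.577% (0.542 to 0.615) and 0.776% (0.706 to 0.851) in the same order. The transposon copia alone took 16.7% and 17.9% of the reads in the ovary libraries and 52.6% and 72.7% in the OSC libraries, again knockdown before control. All intervals cover counting error only.

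Few of these sequences were represented. Of the 26, 11 had a read in at least 1 library, against 111 of the 124 transposons. These counts are not adjusted for length: the 15 without a read were 112 to 3672 nt long. The 26 entries span 44896 of the 672432 positions of all 150 sequences. In some library, 5 had at least 10 reads: NTS_DM, small_kipf_region, stellate, some_heterochromatin_region and TAS_X. NTS_DM, small_kipf_region and stellate held 1941 of the 2051 reads, or 94.6%. The plot of reads by library shows raw reads, which also follow the depth of each library. In raw reads small_kipf_region was higher in the ovary libraries, and NTS_DM, stellate and the heterochromatin region in the deeper OSC libraries. As shares of all reads, NTS_DM took 0.445% in siPIWI OSCs and 0.541% in siGFP OSCs, against 1.30% in vreteno knockdown ovaries and 4.99% in arrestin2 control ovaries. Stellate took 0.0581% in siPIWI OSCs and 0.115% in siGFP OSCs, against 0.426% in vreteno knockdown ovaries and 1.22% in arrestin2 control ovaries. The small_kipf_region took 0.0369% in siPIWI OSCs and 0.0748% in siGFP OSCs, against 2.63% in vreteno knockdown ovaries and 7.93% in arrestin2 control ovaries. In shares of all reads, all 3 were thus lower in both OSC libraries, in which copia takes most of the reads. Without copia, an alternative chosen after seeing the data, this did not hold throughout for NTS_DM. It took 0.939% in siPIWI OSCs and 1.98% in siGFP OSCs, against 1.56% in vreteno knockdown ovaries and 6.07% in arrestin2 control ovaries. Stellate and small_kipf_region stayed lower in both OSC libraries. For stellate, siGFP OSCs (0.420%) and vreteno knockdown ovaries (0.511%) had overlapping intervals, as they had for NTS_DM.

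**Figure D1:**
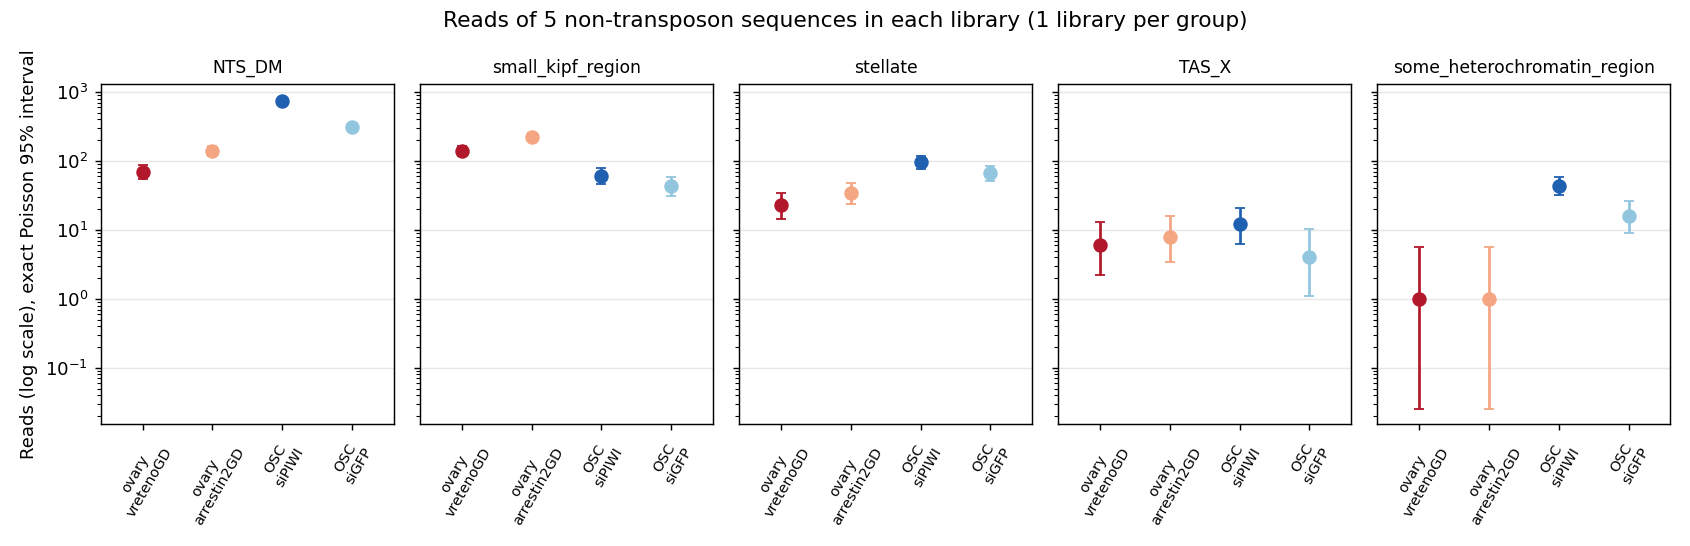
Reads of the 5 sequences with at least 10 reads in a library, on a log axis, for each of the 4 libraries (1 per group); bars are exact Poisson 95% intervals. NTS_DM reached 735 reads in siPIWI OSCs, whereas some_heterochromatin_region had 1 read in each ovary library and 44 and 16 in siPIWI and siGFP OSCs.

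The 15 sequences without a read in any library were 11 of the 13 satellite entries, TAS_2L, Su-Ste, SAR_DM and some_gene_Ebx. The satellite entries without a read were 4 named for simple repeats, all 3 of Responder (RSP, Satellite_LRsp and Satellite_RRsp), the target of the Segregation Distorter system, DMSAT6, dm359, and the entries of 258 and 355 nt of the 1.688 satellite family. A count of 0 allows a share of up to 0.0555% of all reads in vreteno knockdown ovaries, 0.108% in arrestin2 control ovaries, 0.00182% in siPIWI OSCs and 0.00522% in siGFP OSCs (a limit of 3 reads per library). These limits bound what a count of 0 allows and are not detection thresholds, and RNA without a poly(A) tail was not selected for.

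Only 2 satellite entries had reads, both of the 1.688 family. The 353-bp entry had 2 reads in vreteno knockdown ovaries and 1 in arrestin2 control ovaries, and 1 in siPIWI OSCs and 4 in siGFP OSCs. All 5 OSC reads ended at its last position, 353, and the 3 ovary reads ended at positions 326 (1 read in each library) and 328 (vreteno knockdown). The 359-bp entry had 1 read, in vreteno knockdown ovaries, while dm359, an entry of the same length (359 nt), had none. The entries of this family are related repeats, so the assignment of a read to one of them is uncertain.

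Of the telomere-associated repeats, TAS_X, from the X chromosome end, had the most reads. It had 6 reads in vreteno knockdown ovaries and 8 in arrestin2 control ovaries, and 12 in siPIWI OSCs and 4 in siGFP OSCs. Of these 30 reads, all but 1 ended in the first 2166 nt of its 9872 nt. The exception was a read of the vreteno knockdown ovaries at position 9622. The 16 OSC reads were confined to positions 1893 to 2166, whereas the ovary reads in the first part ended between positions 466 and 2158. TAS_3L had 1 read in each OSC library, TAS_2R had 1 in siPIWI OSCs, and neither had a read in ovary. Among the entries without a class, XDMR had 2 reads in siPIWI OSCs and 1 in siGFP OSCs, and SAR2_DM had 2 in arrestin2 control ovaries and 1 in siPIWI OSCs.

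The first comparison set ovaries with somatic knockdown of *vreteno* against the control ovaries. None of the members with enough reads to compare differed by 4-fold at the scaling used. To compare the libraries, knockdown reads were divided by the median ratio over those transposons that reached 10 reads in each library, which was 0.903 (30 transposons, 95% interval of the median 0.761 to 1.07). Of the 26 sequences, 3 reached 10 reads in the larger of their 2 counts. Of these 3, the number 4-fold or more higher was 0, and the number 4-fold or more lower was 0 (a log2 ratio of 2 in size, with a pseudocount of 1 read). Over all 48 sequences that passed the same minimum, transposons included, 25% were higher by that margin and 0% lower. With 3 members, a count of 0 does not set them apart from these shares. At 2-fold the members again numbered 0 and 0, against 39.6% higher and 0% lower over all 48. The 3 members had a median log2 ratio of -0.49, against 0.23 over all 48 sequences.

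NTS_DM had 70 reads in vreteno knockdown ovaries and 139 in arrestin2 control ovaries, a scaled fold of 0.558 (exact conditional 95% interval 0.412 to 0.748). The small_kipf_region had 142 reads in vreteno knockdown ovaries and 221 in arrestin2 control ovaries, a scaled fold of 0.711 (0.572 to 0.882). The stellate entry had 23 reads in vreteno knockdown ovaries and 34 in arrestin2 control ovaries, a scaled fold of 0.749 (0.421 to 1.31). For all 3 the knockdown library had fewer reads, and the counting interval included 1 for stellate alone. At the median ratio, 19 of all 48 sequences (39.6%) had a log2 ratio below 0. With 3 members, a shared direction does not set them apart from that share. Unscaled, the ratios of the 3 members were 0.504 (0.372 to 0.676), 0.643 (0.517 to 0.797) and 0.676 (0.380 to 1.18). As point values each was below the 95% interval of the median transposon ratio (0.761 to 1.07). Only the interval of NTS_DM lay wholly below it, and those of small_kipf_region and stellate overlapped it. Scaled to total transposon reads, a ratio of 2.16, the log2 ratio of NTS_DM was -2.07 in place of -0.83, past the 4-fold threshold. On that scale small_kipf_region had -1.74 in place of -0.49, and stellate -1.59 in place of -0.40. Each fold thus depends on the scaling, and both scales come from transposons, which may themselves respond to the knockdown. At the median ratio, 39.6% of all sequences compared in ovary and 34.6% in OSCs were at least 2-fold higher, all of them transposons. At least 2-fold lower were 0% and 3.85%. A scale raised in this way would lower the folds of the members, which was not tested. With 1 library per group no test between conditions was possible. In whole ovaries, fewer cells of a type and less RNA per cell cannot be told apart.

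Ratios between the members do not depend on the scaling. There were 0.493 NTS_DM reads for each small_kipf_region read in vreteno knockdown ovaries and 0.629 in arrestin2 control ovaries, an odds ratio of 0.784 (exact conditional 95% interval 0.539 to 1.14). Reads of small_kipf_region per stellate read numbered 6.17 in vreteno knockdown ovaries and 6.5 in arrestin2 control ovaries, an odds ratio of 0.95 (0.519 to 1.76). For NTS_DM against stellate the odds ratio was 0.745 (0.392 to 1.43). None of these 3 differences in ovary exceeded its counting interval.

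**Figure D2:**
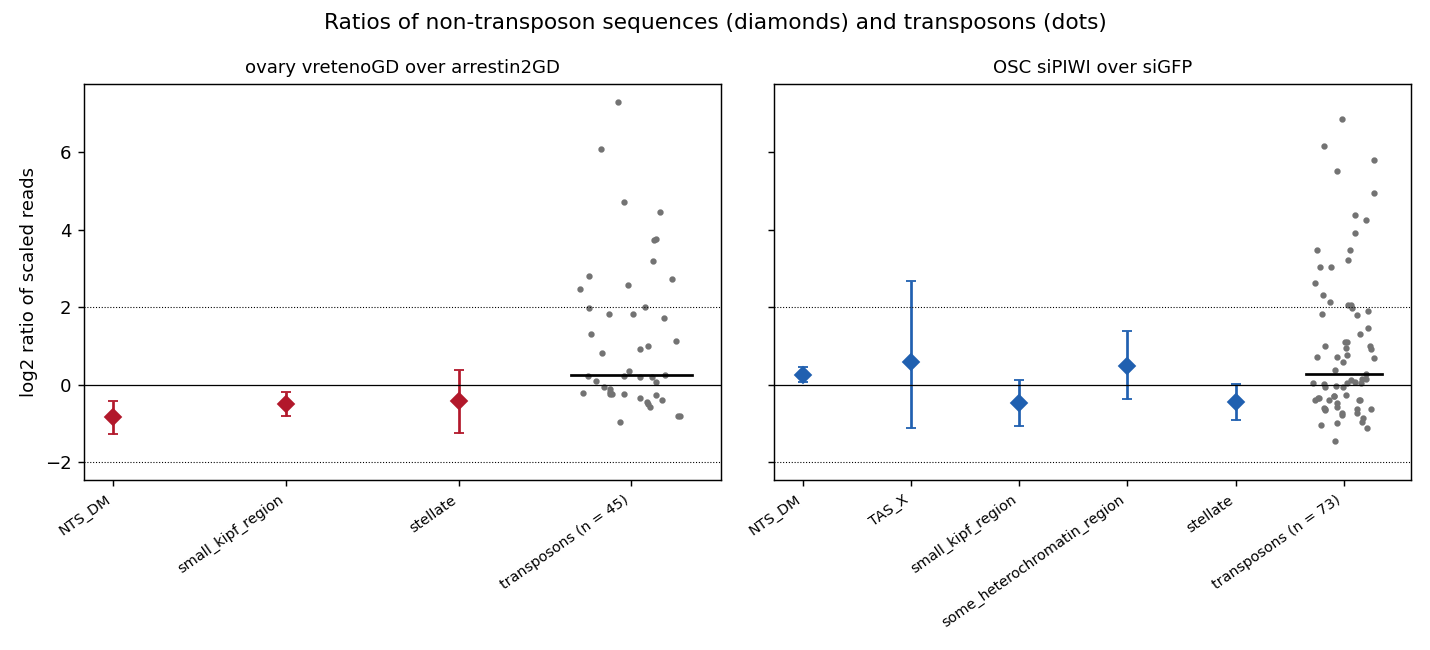
Log2 ratio of scaled reads for the members that passed the 10-read minimum (diamonds with 95% counting intervals, no pseudocount) and for transposons (grey dots, pseudocount of 1; black line, median), with vreteno knockdown over arrestin2 control ovaries on the left and siPIWI over siGFP OSCs on the right. Dotted lines mark 4-fold, and none of the 3 diamonds in ovary or the 5 in OSCs lies beyond them. Of all sequences compared, 25% of 48 in ovary and 23.1% of 78 in OSCs were higher by that much. The diamonds are too few to be set apart from these shares.

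The second comparison set OSCs depleted of *piwi*, whose product is the nuclear Argonaute protein of the piRNA pathway, against siGFP OSCs. Again none of the members compared differed by 4-fold. The median transposon ratio was 1.99 (54 transposons, 1.55 to 2.63). Of the 26 sequences, 5 passed the minimum, and of these the numbers 4-fold or more higher and lower were 0 and 0. Over all 78 sequences that passed, 23.1% were higher by that margin and 0% lower. A count of 0 among 5 members is too small a basis to set them apart from these shares. At a 2-fold threshold the members' counts were still 0 and 0, against 34.6% and 3.85% of all sequences. The 5 members had a median log2 ratio of 0.25, against 0.26 over all 78.

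NTS_DM had 735 reads in siPIWI OSCs and 311 in siGFP OSCs, a scaled fold of 1.19 (1.04 to 1.36). Over the interval of the scaling ratio this fold ranged from 0.898 to 1.53, and its log2 ratio of 0.25 became -0.28 when scaled to total transposon reads, so its direction was not resolved. The stellate entry had 96 reads in siPIWI OSCs and 66 in siGFP OSCs, a scaled fold of 0.733 (0.530 to 1.02). The small_kipf_region had 61 reads in siPIWI OSCs and 43 in siGFP OSCs, a scaled fold of 0.715 (0.476 to 1.08). The some_heterochromatin_region entry had 44 reads in siPIWI OSCs and 16 in siGFP OSCs, a scaled fold of 1.39 (0.766 to 2.63). For TAS_X, with 12 and 4 reads in siPIWI and siGFP OSCs, the scaled fold was 1.51 (0.458 to 6.43). Each of these 5 had more raw reads in the siPIWI library, which was also the deeper (165197 against 57491 reads on all sequences). At the median transposon ratio, 2 of the 5 had a log2 ratio below 0, as had 30 of all 78 sequences (38.5%). The counting intervals of the 4 members other than NTS_DM included 1 at that ratio. Total transposon reads gave a higher ratio, 2.88, which lies above the intervals of the unscaled ratios of stellate (1.45, 1.05 to 2.02) and small_kipf_region (1.42, 0.945 to 2.15). Scaled to it, their log2 ratios were -0.96 for stellate, in place of -0.44, and -0.99 for small_kipf_region, in place of -0.47. The heterochromatin region had -0.06 in place of 0.45, and TAS_X 0.05 in place of 0.49.

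Within the OSC libraries the members did not keep a common ratio. There were 12.0 NTS_DM reads per small_kipf_region read in siPIWI OSCs and 7.23 in siGFP OSCs, an odds ratio of 1.67 (1.07 to 2.56). Likewise there were 7.66 NTS_DM reads per stellate read in siPIWI OSCs and 4.71 in siGFP OSCs, an odds ratio of 1.62 (1.14 to 2.31). Both intervals exclude 1 and do not depend on the scaling, but they compare 2 libraries, not 2 conditions. The ratio of small_kipf_region to stellate was 0.635 in siPIWI OSCs and 0.652 in siGFP OSCs (odds ratio 0.975, 0.574 to 1.66). The ratio of NTS_DM to the heterochromatin region was 16.7 in siPIWI OSCs and 19.4 in siGFP OSCs (odds ratio 0.860, 0.446 to 1.58). Of the 6 member pairs compared in OSCs, only NTS_DM against small_kipf_region and against stellate had intervals that exclude 1.

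Against the other members, small_kipf_region was less represented in OSCs than in ovary. In the controls there were 7.23 NTS_DM reads per small_kipf_region read in siGFP OSCs and 0.629 in arrestin2 control ovaries, an odds ratio of 11.5 (7.73 to 17.3). Between the knockdowns the values were 12.0 in siPIWI OSCs and 0.493 in vreteno knockdown ovaries (odds ratio 24.3, 16.3 to 36.7). Stellate reads per NTS_DM read were 0.212 in siGFP OSCs and 0.245 in arrestin2 control ovaries (odds ratio 0.868, 0.537 to 1.42), and 0.131 in siPIWI OSCs and 0.329 in vreteno knockdown ovaries (0.398, 0.232 to 0.701). The OSC libraries are a cultured cell type and the ovaries a whole organ, with 1 library each, so tissue, culture and library cannot be told apart.

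Per kilobase of reference sequence, NTS_DM had the densest reads of the members in every library: 292 reads per kb in vreteno knockdown ovaries, 579 in arrestin2 control ovaries, 3063 in siPIWI OSCs and 1296 in siGFP OSCs. On the same scale stellate had 18.1, 26.8, 75.7 and 52.01 reads per kb, and small_kipf_region 11.7, 18.1, 5.01 and 3.53, with the libraries in the same order. Because each read was counted at 1 position whatever its length, and a tandem array collapses onto 1 unit, these densities describe the reference entries and not the number of genomic copies transcribed.

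Reads on the rDNA spacer ended at recurrent, sharply defined positions. NTS_DM is 240 nt long, and position 204 was the most used in all 4 libraries. It held 31 of 70 reads in vreteno knockdown ovaries (44.3%, 32.4 to 56.7), 63 of 139 in arrestin2 control ovaries (45.3%, 36.9 to 54.0), 307 of 735 in siPIWI OSCs (41.8%, 38.2 to 45.4) and 126 of 311 in siGFP OSCs (40.5%, 35.01 to 46.2). Position 199 came second in each library, with 17.1%, 15.1%, 15.5% and 20.3% of reads in the same order. Position 151, farther upstream, held 8.57%, 9.35%, 8.30% and 9.32%. All of these shares had overlapping intervals between knockdown and control and between OSCs and ovary.

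**Figure D3:**
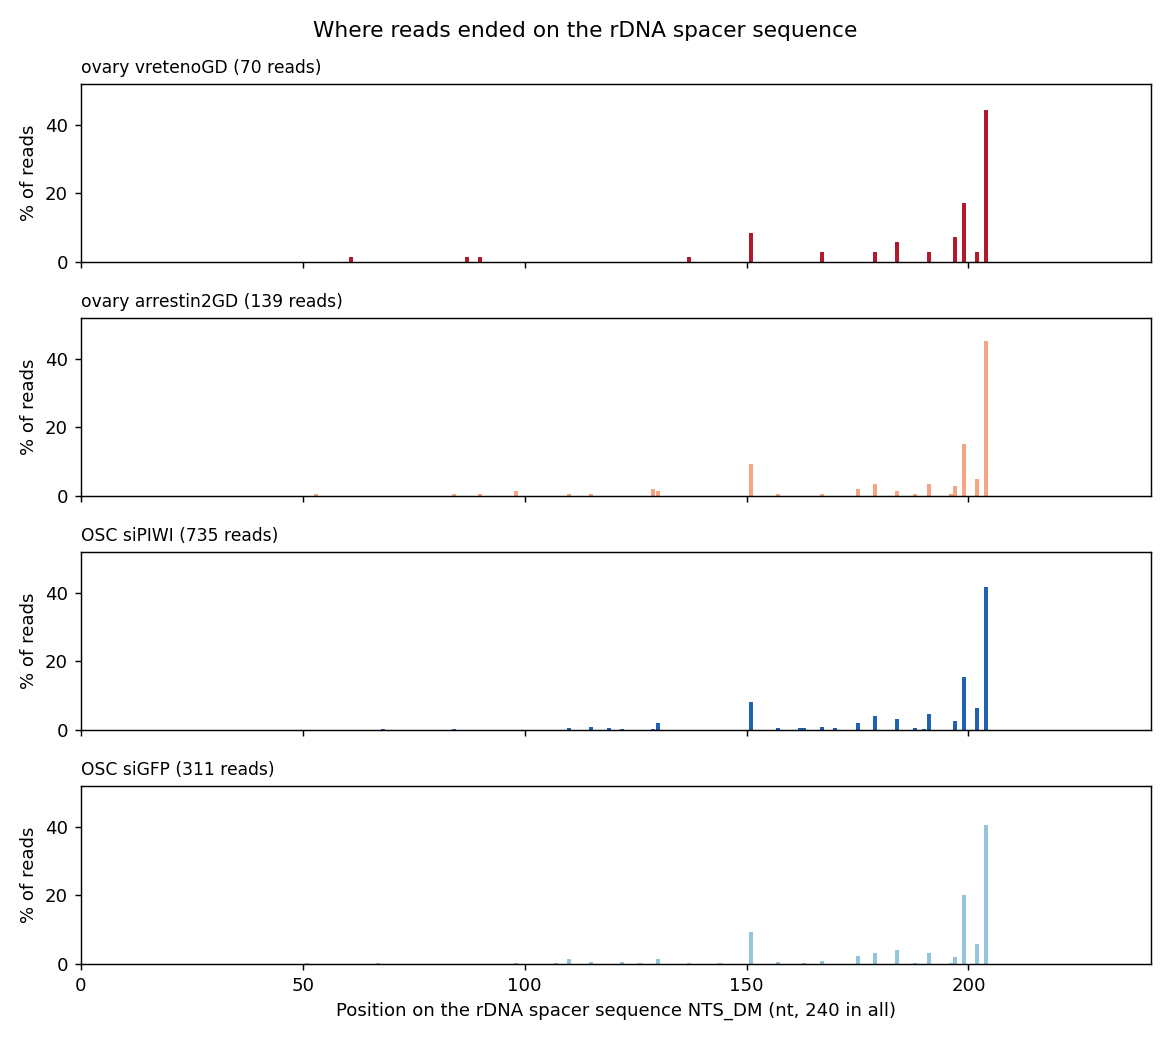
Percentage of NTS_DM reads (y axis) ending at each position of the 240-nt rDNA spacer sequence (x axis), 1 panel per library with its number of reads. Position 204 held 40.5% to 45.3% of reads in each library, with smaller peaks at positions 199 and 151, and no read ended beyond position 204.

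The 1255 NTS_DM reads of the 4 libraries fell on 42 of the 240 positions. Of these, 9 positions (151, 167, 179, 184, 191, 197, 199, 202 and 204) were used in all 4 libraries and together held 88.4% of the reads. The 8 nucleotides from 197 to 204 held 71.4% of reads in vreteno knockdown ovaries, 68.3% in arrestin2 control ovaries, 66.4% in siPIWI OSCs and 68.5% in siGFP OSCs. No read ended in the last 36 nt or the first 47 nt. In siPIWI OSCs, the deepest of the 4, the absence allows a share of up to 0.408% of NTS_DM reads. As a description over the 42 positions, the profiles of any pair of libraries had Pearson's r of 0.981 to 0.995 and Spearman's rho of 0.486 to 0.722. The high r rests on the few highest positions, and the libraries share the reference sequence.

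At position 204 the scaled fold was 0.545 (0.342 to 0.85) for vreteno knockdown over arrestin2 control ovaries, with 31 and 63 reads. In OSCs it was 1.23 (0.994 to 1.52) for siPIWI over siGFP, with 307 and 126 reads. Both were close to the fold of the whole spacer sequence, of which position 204 itself holds a large part of the reads. At position 199 the fold was 0.633 (0.284 to 1.35) in ovary and 0.912 (0.664 to 1.26) in OSCs. At position 151 it was 0.511 (0.159 to 1.44) in ovary and 1.06 (0.671 to 1.71) in OSCs. The intervals at positions 199 and 151 include 1 and overlap those at position 204.

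In small_kipf_region the read ends formed 2 clusters, and their balance differed between OSCs and ovary. The region is 12185 nt long. Split at gaps of over 50 nt between read ends, the clusters ran from position 10707 to 10850 (proximal, 201 reads over the 4 libraries) and from 11009 to 11104 (distal, 246 reads). The most used positions were 10796 and 11098, 302 nt apart. The clusters were defined after the positions had been seen.

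In vreteno knockdown ovaries 77 reads ended in the proximal and 60 in the distal cluster, a proximal share of 56.2% (47.5 to 64.7). In arrestin2 control ovaries the numbers were 109 and 100, a share of 52.2% (45.2 to 59.1). In siPIWI OSCs they were 10 and 48 (17.2%, 8.59 to 29.4), and in siGFP OSCs 5 and 38 (11.6%, 3.89 to 25.1). The intervals of the ovary libraries overlap each other, as do those of the OSC libraries, and neither OSC interval reaches an ovary interval. The odds of a proximal end in siGFP OSCs were 0.122 times those in arrestin2 control ovaries (0.0359 to 0.326), and in siPIWI OSCs 0.164 times those in vreteno knockdown ovaries (0.0681 to 0.362). Between knockdown and control the odds ratio was 1.18 (0.746 to 1.86) for ovary, and for OSCs it was 1.58 (0.445 to 6.39), with no difference detectable.

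**Figure D4:**
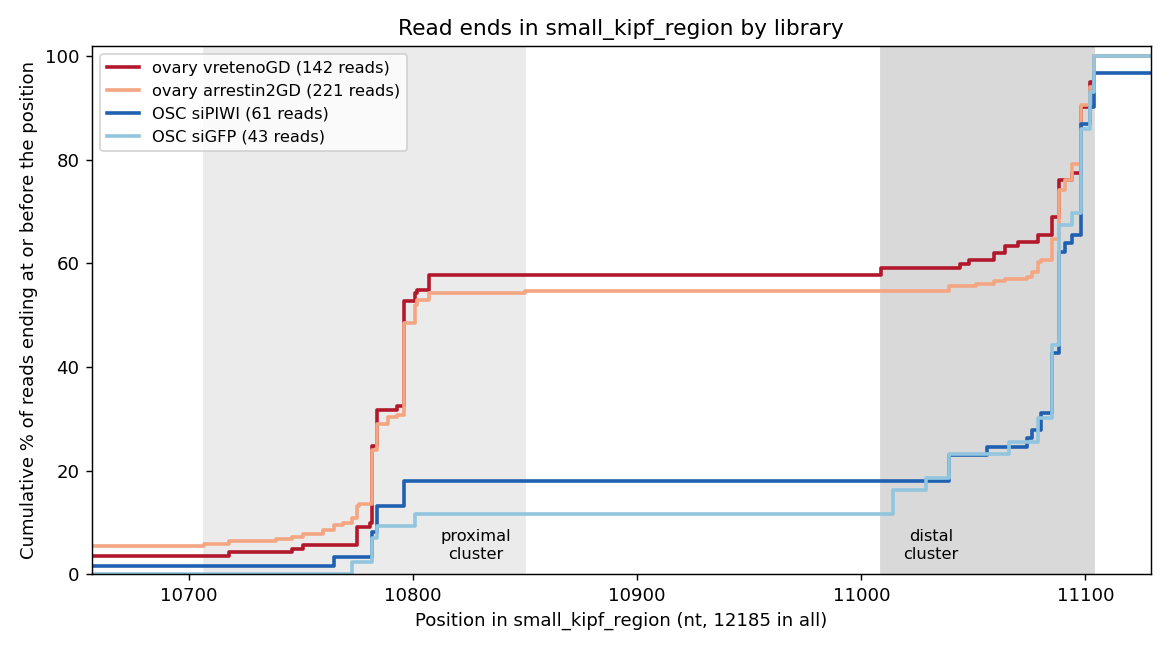
Cumulative percentage of small_kipf_region reads (y axis) ending at or before each position (x axis, around the 2 clusters) for the 4 libraries; shading marks the clusters. Both ovary curves pass 50% within the proximal cluster, while the OSC curves stay below 20% until the distal cluster.

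The most used single position was 10796 in both ovary libraries (29 of 142 reads in vreteno knockdown and 39 of 221 in arrestin2 control ovaries). It was 11098 in siPIWI OSCs (13 of 61) and 11088 in siGFP OSCs (10 of 43). In siGFP OSCs no read ended at 10796, and in siPIWI OSCs 3 did. Reads ending upstream of both clusters numbered 5 of 142 in vreteno knockdown ovaries, 12 of 221 in arrestin2 control ovaries, 1 of 61 in siPIWI OSCs and 0 of 43 in siGFP OSCs (a limit of 6.98% for the last). Per cluster, vreteno knockdown over arrestin2 control ovaries gave scaled folds of 0.782 (0.576 to 1.06) for proximal and 0.664 (0.474 to 0.924) for distal ends.

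Stellate reads ended near the 3' end of the entry in every library. The entry is 1269 nt long. In the Ensembl annotation of the fly (assembly BDGP6), 12 Stellate genes with names of the form Ste:CG are annotated on the X chromosome, with a median gene length of 724 nt, and the starts of 7 of their 11 neighbouring pairs lie exactly 1269 nt apart (range 1239 to 1270). The entry thus has the length of 1 repeat unit, and a read cannot be placed on a single copy. That annotation also holds 34 Suppressor of Stellate genes, 27 of them on the assembled Y chromosome, which female flies lack. The Su-Ste entry, 1327 nt long, had 0 reads in all 4 libraries.

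The cluster of stellate ends from position 1207 to 1251 held 22 of 23 reads in vreteno knockdown ovaries, 34 of 34 in arrestin2 control ovaries, 91 of 96 in siPIWI OSCs (94.8%, 88.3 to 98.3) and 59 of 66 in siGFP OSCs (89.4%, 79.4 to 95.6). Within it 7 positions (1223, 1226, 1233, 1238, 1242, 1245 and 1251) were used in all 4 libraries and held 84.0% of the 219 stellate reads. The main position was 1242 in arrestin2 control ovaries (10 reads) and siGFP OSCs (16 reads), 1251 in siPIWI OSCs (25 reads), and both positions were level in vreteno knockdown ovaries (5 reads each). The remaining ends lay between positions 951 and 1065, with 1 read in vreteno knockdown ovaries, 0 in arrestin2 control ovaries, 5 in siPIWI OSCs and 7 in siGFP OSCs. Of these, position 1065 held 1, 0, 4 and 3 reads in that order. The share of such upstream ends was 5.21% (1.71 to 11.7) in siPIWI OSCs and 10.6% (4.37 to 20.6) in siGFP OSCs, with no difference detectable at this depth.

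**Figure D5:**
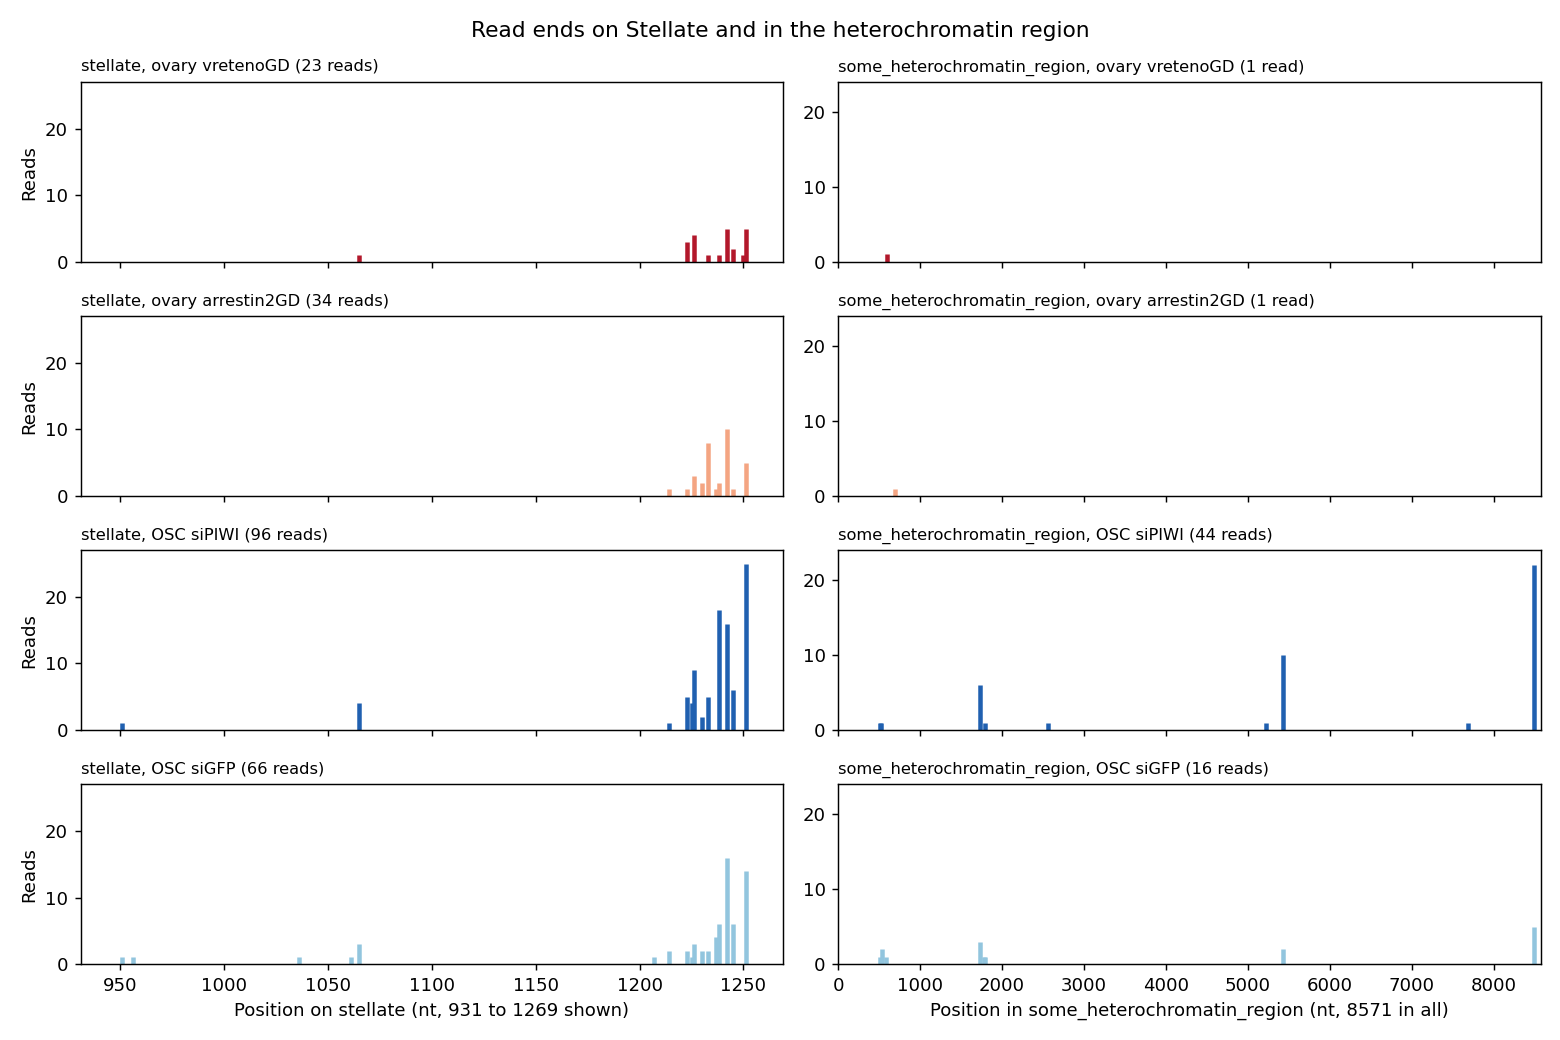
Number of reads (y axis) ending at each position of stellate (left, the 3' part of 1269 nt) and of some_heterochromatin_region (right, 8571 nt), 1 row per library. Stellate ends crowd between 1207 and 1251 in all 4 libraries, and the heterochromatin region has its main peaks, at 8489, 5423 and 1730, in the OSC panels; each ovary library has 1 read there.

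Of the 62 reads of some_heterochromatin_region, 44 came from siPIWI OSCs and 16 from siGFP OSCs. It had 1 read in vreteno knockdown ovaries (position 595) and 1 in arrestin2 control ovaries (position 697). In OSCs its reads ended at few and distant positions of the 8571 nt. Position 8489 held 22 of 44 reads in siPIWI OSCs and 5 of 16 in siGFP OSCs. Position 5423 held 10 reads in siPIWI and 2 in siGFP OSCs, and position 1730 held 6 and 3. The scaled fold of siPIWI over siGFP was 2.22 (0.819 to 7.49) at position 8489 and 2.52 (0.537 to 23.6) at position 5423, so no difference was detectable at either site. The share of reads at 8489 was 50% (34.6 to 65.4) in siPIWI OSCs and 31.2% (11.02 to 58.7) in siGFP OSCs, with overlapping intervals. As shares of all reads in the files, the region had 0.0266% (0.0194 to 0.0358) in siPIWI OSCs and 0.0278% (0.0159 to 0.0452) in siGFP OSCs. In the ovary libraries 1 read corresponded to 0.0185% (0.000469 to 0.103) with the vreteno hairpin and 0.0359% (0.000908 to 0.200) with the arrestin2 hairpin. These intervals contain the OSC shares, so the ovary libraries were too shallow to tell whether the region was less represented there as a share of all reads.

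Across the members, the exact main position was shared by the knockdown and its control in 5 of 7 comparisons in which both libraries had at least 10 reads. The exceptions were small_kipf_region and stellate in OSCs, whose main positions lay 10 and 9 nt apart. In ovary the match of stellate rests on the tie between 1242 and 1251 in the vreteno knockdown library. Within 25 nt all 7 coincided.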

How the data were processed

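The authors deposited, for each of 4 libraries, whole-number counts at each position of 150 reference sequences (672432 positions), under the columns TE, POS and VAL per the file headers, with no strand. Per the labels' protocols, RNA was enriched on oligo(dT) beads and prepared with a nanopore direct RNA kit that includes reverse transcription. The submitters' processing notes name minimap2. The sources used here give neither its version and settings nor how reads matching several sequences were handled. No reference sequence of these entries was used here, so none is printed.

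Counts were summed per sequence and library. Classes were taken from the names. A sequence was compared where its larger count in a pair was 10 or more, and all of the 26 are accounted for in the text: those with fewer reads are named with their reads. With 1 library per group no test was run and no p-value is given. Intervals are exact conditional (folds, odds ratios) or Clopper-Pearson (shares) 95% intervals, and that of the median scaling ratio comes from order statistics. Those of the log2 differences between the ovary and OSC pairs are normal (Wald) approximations for counting error. Alternatives were other scalings, pseudocounts, read minimums and thresholds. The calculation was tested on simulated data. There the coverage of the fold intervals was checked at the known depth ratio, not at an estimated one. Members, lists and rules were chosen with earlier results of these data known. Python 3.11.15, numpy 2.4.6, scipy 1.17.1, pandas 2.3.3 and matplotlib 3.10.9 were used.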

Additional observations from a re-analysis of the deposited data

Results flagged for a closer look

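The scaled fold of NTS_DM at the median transposon ratio differed between the pairs. It was 1.19 for siPIWI over siGFP OSCs, where its direction was not resolved. For vreteno knockdown over arrestin2 control ovaries it was 0.558. The log2 difference, OSC minus ovary, was 1.09, with a counting interval of 0.64 to 1.55. Scaled to total transposon reads, both log2 ratios were negative (-0.28 in OSCs and -2.07 in ovary), so the opposite signs at the median ratio depend on the scaling. With the ranges of both scaling ratios added, the interval was -0.02 to 2.15. Set against small_kipf_region, which frees it of the scaling, the difference was 1.09 (0.30 to 1.87), and against stellate 1.13 (0.13 to 2.12). Both values use the same NTS_DM reads, and NTS_DM was flagged because its folds differed, so they are not independent support. With 1 library per group the difference between conditions was not tested, and the knocked-down gene, the tissue and the library cannot be told apart. The same difference was 0.01 (-0.63 to 0.65) for small_kipf_region and -0.03 (-0.92 to 0.86) for stellate, by counting error alone.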

How the results depend on the processing

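The counts of members at least 4-fold higher or lower were 0 in both comparisons and under every alternative tried, except that scaling to total transposon reads made 1 member, NTS_DM, at least 4-fold lower in vreteno knockdown ovaries. The summed reads of all members gave a fold of 0.668 (0.568 to 0.785) for vreteno knockdown over arrestin2 control ovaries and 1.08 (0.962 to 1.21) for siPIWI over siGFP OSCs. Scaled to total transposon reads these were 0.279 and 0.743, and scaled to all reads 0.312 and 0.744. The OSC sum was 2.14 without scaling and 0.817 (0.656 to 1.02) without NTS_DM, the member with the most reads. The direction of the summed OSC reads thus depends on the scaling. As shares of reads without copia, an alternative chosen after seeing the data, the members took 5.45% in vreteno knockdown ovaries, 17.7% in arrestin2 control ovaries, 1.22% in siPIWI OSCs and 2.84% in siGFP OSCs. Narrow windows of 15 nt on either side of the highest positions, also chosen after seeing the data, kept all 4 proximal shares of small_kipf_region within their intervals. A pseudocount of 10 and leaving out the highest position kept all 8 log2 ratios (3 in ovary and 5 in OSCs) within their intervals. Other scalings did not: 5 of the 8 moved outside when scaled to total transposon reads, 5 when scaled to all reads and 4 without scaling. Without scaling, the log2 ratios in OSCs were 0.53 in place of -0.44 for stellate and 0.49 in place of -0.47 for small_kipf_region. No paired analysis was possible because each group has 1 library. The files hold 5401 reads for vreteno knockdown ovaries and 2788 for arrestin2 control ovaries, and in OSCs small_kipf_region rests on 61 and 43 reads in siPIWI and siGFP.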
